A study of Mus musculus with 12 samples.

Results

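Bmp4, the TGF-beta genes Tgfb1, Ltbp1, Tgfbi and Tgfbr2, the BMP receptor genes Bmpr1a and Bmpr2, and the Id genes Id1, Id2 and Id3 were followed across blood progenitors that carry a point mutation of the transcription factor PU.1. These 10 genes, of 18193 genes with a probe set on the array, were taken as every probe set whose platform annotation names 1 of them and no other gene, which gave 27 probe sets of 45037. Each gene is described by its lead probe set, the one that averaged highest across the 12 arrays, and the others serve as checks. That mean is the measured value on which the choice of probe sets rests. The 10 genes were also put together with earlier KI against WT results of these arrays in view, so a call on one of them is a description of these arrays and not independent support.

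The study asked what PU.1 loses in hematopoiesis when 1 glutamine of its Ets domain is replaced by leucine (Q202L), a change selected for loss of binding to the AP-1 protein c-Jun while DNA binding is kept. RNA from cells sorted out of the liver was hybridized to 12 Affymetrix MG430 v2 arrays, with 3 arrays for each of 4 groups, KI and WT cells of an ST-HSC gate and KI and WT cells of a GMP gate. KI cells came from mice homozygous for the PU.1 Q202L knock-in, WT cells from littermates with both alleles intact, and all were newborns of heterozygous breeding pairs, sorted from the liver, with C57Bl/6 as the recorded strain (the study's reporting statement names a mixed background, and its text speaks of fetal liver). The mutation is in the germ line and therefore present in every cell type of the KI animals. ST-HSC, short-term hematopoietic stem cells, were gated as lin- Sca-1+ c-kit+ CD150- (the sample records give CD48+, the study's text CD48-), and GMP, granulocyte-macrophage progenitors, as lin- and Sca-1- cells positive for c-kit and CD34 with high FcgRII/III. The study calls the KI cells of the second gate GMP-like and gives their CD34 as intermediate. The records do not tell which samples share an animal or a litter, so the spread behind each p-value is that of the samples at hand and may be technical.

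Facts of the whole series bear on the values below. Arrays of 1 group correlated with each other at r of 0.963 to 0.99 across probe sets. The median log2 value was 5.00 to 5.10 on ST-HSC arrays and 4.70 to 4.79 on GMP arrays, so levels are compared only within a population. Spi1, the gene of PU.1, lay at 8.08 to 8.18 in KI ST-HSC and 7.89 to 8.03 in WT ST-HSC, and at 8.28 to 8.95 in KI GMP and 7.95 to 8.47 in WT GMP; the array does not read the point mutation itself. Of 7 measured gate genes, 4 were called in ST-HSC and 1 in GMP. Cd34 was lower in KI in both populations (by limma, log2 difference -1.41 with adjusted p = 0.00103 in ST-HSC and -2.87 with adjusted p = 7e-06 in GMP), while the CD150 gene Slamf1 was higher in KI cells of the ST-HSC gate (1.92, adjusted p = 0.00132). In that gate Fcgr3, which encodes an Fc gamma receptor, was also higher (1.68, adjusted p = 0.00165) and Flt3, a receptor of multipotent and lymphoid progenitors, lower (-2.69, adjusted p = 0.0215). Xist, transcribed from the inactive X chromosome of females, was at or below 3.78 on all 6 KI arrays and on replicate 2 of each WT group, but at or above 10.67 on the other 4 WT arrays. The labels give no sex. Genotype and Xist level are partly confounded, so KI minus WT differences and differences by sex cannot be fully told apart.

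BMP and TGF-beta ligands are secreted dimers that bind pairs of type I and type II receptor kinases, which phosphorylate Smad proteins that then enter the nucleus. BMP4, made in the embryo by mesenchyme and other tissues, acts in the formation of mesoderm and blood, while TGF-beta1 is kept latent by its own propeptide and by LTBP proteins and is known to hold hematopoietic stem cells in quiescence. The Id proteins lack a DNA-binding domain and keep E proteins from binding DNA, and their genes are classical targets of BMP signalling. In blood, Id2 is known for its part in dendritic and innate lymphoid cells, and Id3 for restraining lymphoid programs. PU.1 is an Ets factor that binds purine-rich DNA.

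The proximal promoters of the 5 genes called below are shown because PU.1, AP-1 and Smad proteins act through short DNA motifs, and the letters near each start are part of the data on these genes. They were taken from RefSeq on the build GRCm38.p6, from 250 bases before to 50 bases after the transcription start, 5′ to 3′ on the strand of the gene. In this source 9 of the 10 genes had a match, all but Id1. Capitals mark matches on either strand to GAGGAA (a purine-rich PU.1 core), TGANTCA or TGANNTCA (AP-1 sites) or GGCGCC (a core of BMP-responsive elements).
Bmp4, chr14:46390620-46390919, minus strand: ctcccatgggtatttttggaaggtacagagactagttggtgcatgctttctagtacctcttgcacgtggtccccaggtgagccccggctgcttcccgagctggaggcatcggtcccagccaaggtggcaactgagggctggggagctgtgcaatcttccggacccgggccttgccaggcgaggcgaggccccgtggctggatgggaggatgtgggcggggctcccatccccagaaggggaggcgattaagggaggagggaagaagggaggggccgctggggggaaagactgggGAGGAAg
Ltbp1, first of its starts, chr17:75005279-75005578, plus strand: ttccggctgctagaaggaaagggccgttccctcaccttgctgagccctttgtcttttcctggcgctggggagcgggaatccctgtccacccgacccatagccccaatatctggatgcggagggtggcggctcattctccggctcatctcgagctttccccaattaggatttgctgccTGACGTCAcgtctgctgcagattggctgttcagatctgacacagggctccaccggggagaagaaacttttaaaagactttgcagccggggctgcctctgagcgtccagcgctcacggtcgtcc
Tgfbi, chr13:56609336-56609635, plus strand: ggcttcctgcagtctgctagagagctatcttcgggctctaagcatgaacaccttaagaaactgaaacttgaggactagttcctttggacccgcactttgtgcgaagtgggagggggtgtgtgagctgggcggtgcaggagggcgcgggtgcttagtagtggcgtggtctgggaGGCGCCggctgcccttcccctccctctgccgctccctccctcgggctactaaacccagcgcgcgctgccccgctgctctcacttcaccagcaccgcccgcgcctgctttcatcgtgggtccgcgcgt
Id2, chr12:25096043-25096342, minus strand: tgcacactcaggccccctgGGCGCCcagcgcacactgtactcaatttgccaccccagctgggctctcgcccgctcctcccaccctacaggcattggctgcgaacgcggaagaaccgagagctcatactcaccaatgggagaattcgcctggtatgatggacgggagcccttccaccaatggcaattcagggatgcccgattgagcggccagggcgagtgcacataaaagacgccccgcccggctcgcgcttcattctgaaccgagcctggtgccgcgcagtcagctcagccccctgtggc
Id3, chr4:136143572-136143871, plus strand: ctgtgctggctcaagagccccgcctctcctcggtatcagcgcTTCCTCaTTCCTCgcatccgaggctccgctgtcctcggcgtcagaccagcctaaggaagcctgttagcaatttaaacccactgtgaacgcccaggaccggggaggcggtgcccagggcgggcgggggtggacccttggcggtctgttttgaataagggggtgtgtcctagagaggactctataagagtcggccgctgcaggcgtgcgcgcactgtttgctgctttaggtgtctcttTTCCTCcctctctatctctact
The Bmp4 promoter held GAGGAA once, at bases 294 to 299, and the Id3 promoter held it 3 times, each on the opposite strand. The Tgfbr2 window, of a gene not called, held it at bases 194 to 199. The letters GAGGAA occur in 28.3% of all 32851 promoters of 300 bases. The Ltbp1 promoter held TGACGTCA, which c-Jun is known to bind with ATF partners, at bases 178 to 185; its pattern TGANNTCA is found in 14.1% of promoters, and a second Ltbp1 start at chr17:75178531-75178830 held GAGGAA. No promoter of the 9 genes contained TGANTCA, found in 7.81% of all promoters. GGCGCC, present in 11.9% of promoters, was found at bases 174 to 179 for Tgfbi and 20 to 25 for Id2, and also in the Bmpr1a and Bmpr2 windows. A match describes letters only and shows no binding, and the Tgfb1 window held none of the 4 motifs.

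Over the 10 genes, 1 was called higher (Ltbp1) and 3 lower (Tgfbi, Id2, Id3) in KI ST-HSC, against 1.33% of all genes higher and 1.68% lower. In KI GMP 2 were called higher (Bmp4, Ltbp1) and 1 lower (Tgfbi), against 1.19% and 1.4% of all genes. Groups did not overlap for 4 genes in ST-HSC, against 22% of all genes, and for 4 in GMP, where Id1 joined the 3 called genes, against 19.4%. The median difference of the 10 genes was 0.14 in ST-HSC and -0.14 in GMP, beside -0.02 and -0.03 over all genes. As the genes were assembled with these differences known, nothing is read from the counts.

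In KI GMP the Bmp4 ligand gene was high and in WT GMP it was near the lowest signals of the array. The log2 values were 7.03, 6.74 and 6.34 in KI GMP, against 2.32, 2.91 and 2.26 in WT GMP. Every KI array was above every WT array by a wide margin, and within the arrays the probe set lay at percentiles 68.1 to 74.2 in KI GMP and 1.2 to 13.8 in WT GMP. Bmp4 rose by 4.20 ± 0.29 on the log2 scale (SE; 95% interval 3.55 to 4.85), an 18.4-fold higher signal, with limma's adjusted p = 5.33e-05. It stood at rank 6 by size and rank 3 by p among the 217 genes called higher in KI GMP. When the WT arrays high in Xist were left out, the difference was 3.79 (adjusted p = 0.0176), with 1 WT array that is assumed to vary like the other groups. RMA compresses differences at low signal, so with WT GMP this low the true ratio may be larger.

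In ST-HSC the same ligand gene was below the array median in both genotypes. Bmp4 measured 4.32, 3.45 and 3.55 in KI ST-HSC, against 3.26, 3.79 and 3.13 in WT ST-HSC. The groups overlapped, since WT replicate 2 lay above 2 of the KI arrays. The difference was 0.38 (95% interval -0.27 to 1.03, adjusted p = 0.675 by limma), which leaves out a change of the size seen in GMP. The difference between the populations was itself tested and came to 3.82 (95% interval 2.90 to 4.74), past the threshold with limma's adjusted p = 0.013. Only 9 of 18193 genes, or 0.0495%, passed that test. The call was lost without KI ST-HSC replicate 2 (adjusted p = 0.0547) or replicate 3 (adjusted p = 0.0573), when the 4 WT arrays high in Xist were left out (adjusted p = 0.0715) and with the replicate number as a block (adjusted p = 0.128), although the difference stayed between 3.62 and 4.10 whichever array was left out. Bmp4 has 1 probe set here, so no second probe set checks it.

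Bmp4 is widely known as a product of mesenchymal and stromal cells, so stromal markers stand beside it. The summed unlogged signal of 9 stromal genes was 948 to 1240 in KI GMP and 369 to 406 in WT GMP, and 686 to 813 in KI ST-HSC and 271 to 545 in WT ST-HSC. Of the 9 genes, 1 was called in GMP and none in ST-HSC. Much of the sum came from Pdgfrb, a growth factor receptor of mural cells, which averaged 9.38 in KI GMP and 7.65 in WT GMP and 8.98 in KI ST-HSC and 7.23 in WT ST-HSC, with differences of 1.73 and 1.75 that were not called (adjusted p = 0.0919 and 0.0996). Dcn, which encodes the proteoglycan decorin, read 8.62, 6.81 and 7.03 in KI GMP and 4.14, 4.19 and 4.38 in WT GMP, a difference of 3.25 (adjusted p = 0.00214). Most of the list did not rise in GMP. Col1a1, Col1a2, Lum, Pdgfra, Des and Acta2 differed there by -0.24, -0.30, -0.17, -0.21, -0.12 and -0.34, and Col3a1 by 0.01. The median difference of the 9 genes was 0.03 in ST-HSC and -0.17 in GMP. Col3a1, Lum and Pdgfra, which also mark stromal cells, lay below the array median on every array. The part of such cells in the Bmp4 signal was not tested, and in bulk samples more cells that express a gene and more RNA per cell cannot be told apart.

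**Figure D1:**
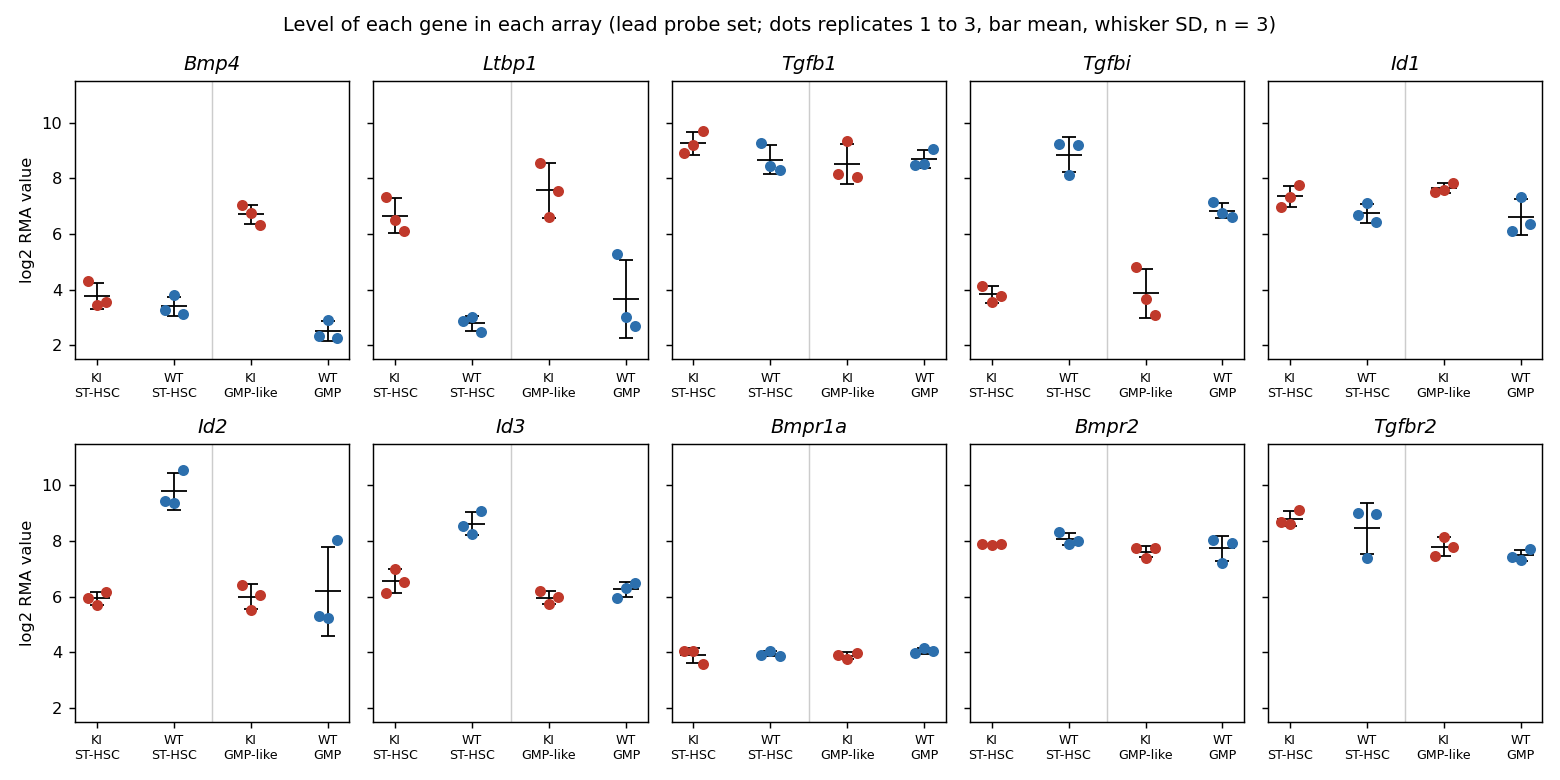
Log2 RMA values (y axis) of the lead probe set of each of the 10 genes in the 3 arrays of each group (x axis; red KI, blue WT), with the mean as a bar and the SD as a whisker (n = 3). Bmp4 is at 6.34 to 7.03 in KI GMP and at 2.26 to 2.91 in WT GMP, Ltbp1 is higher in KI in both populations, Tgfbi lower in KI in both, and Id2 and Id3 are lower in KI ST-HSC.

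Tgfb1, the TGF-beta ligand gene that blood cells themselves express, was well above the array median in all groups. It read 8.90, 9.19 and 9.71 in KI ST-HSC, against 9.26, 8.46 and 8.29 in WT ST-HSC. In GMP it read 8.14, 9.35 and 8.05 in KI cells and 8.49, 8.50 and 9.05 in WT cells. KI and WT overlapped in both populations. The differences of 0.60 (95% interval -0.24 to 1.44) and -0.17 (-1.01 to 0.67) did not pass the test, with limma's adjusted p = 0.587 and 0.917. Its other probe set gave 0.15 and -0.52, also not called.

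Ltbp1, which encodes a latent TGF-beta binding protein that tethers the inactive ligand to the extracellular matrix, was higher in KI in both populations. In ST-HSC its values were 7.34, 6.51 and 6.10 in KI cells, against 2.86, 3.01 and 2.46 in WT cells. In GMP they were 8.57, 6.60 and 7.55 in KI cells, against 5.26, 2.99 and 2.69 in WT cells. Neither pair of groups overlapped, but WT GMP replicate 1 stood more than 2 log2 units above the other WT GMP arrays. By limma Ltbp1 rose by 3.87 ± 0.67 in ST-HSC (14.7-fold, adjusted p = 0.0127) and by 3.92 ± 0.67 in GMP (15.2-fold, adjusted p = 0.0153; SE, n = 3 against 3). The difference between the populations was 0.05 with a 95% interval of -2.04 to 2.13 (adjusted p = 0.997).

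The call of Ltbp1 rests on 1 of 3 probe sets. The second, whose mean over the arrays was nearly the same (5.160 against 5.163), read 6.01, 5.84 and 5.72 in KI ST-HSC and 5.15, 5.09 and 5.16 in WT ST-HSC, a difference of 0.72 (adjusted p = 0.177). Those ST-HSC groups did not overlap, but the difference was far smaller and was not called. In GMP it differed by 0.55 (adjusted p = 0.301), with overlapping groups. The last differed by -0.12 in ST-HSC and 0.01 in GMP, but it was at the bottom of every array and so checks little. In ST-HSC the call on the leading probe set was lost when KI replicate 1, KI replicate 2 or WT replicate 3 was left out (adjusted p = 0.0567, 0.0559 and 0.0522 in that order). In GMP it was lost without WT replicate 3 (0.0515), with the Xist level as a covariate (0.0554), when only the 6 GMP arrays were fitted (0.124) and by SAM, a permutation method that the study's methods name. When the WT arrays high in Xist were left out, the differences were 3.64 and 4.58, with adjusted p = 0.0608 and 0.0568.

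Megakaryocyte genes stand beside Ltbp1. The summed unlogged signal of 6 such genes was 973 to 1410 in KI ST-HSC and 325 to 521 in WT ST-HSC, and 458 to 777 in KI GMP and 291 to 399 in WT GMP. Of the 6, 2 were called higher in ST-HSC, Pf4, which encodes a platelet chemokine (3.49, adjusted p = 0.0483), and Gp1bb, which encodes a subunit of the platelet receptor for von Willebrand factor (1.72, adjusted p = 0.0321). In GMP Gp1bb alone was called (2.86, adjusted p = 0.0026). Pf4, Vwf and Gp9 differed there by -0.77, -0.36 and -0.32, and Itga2b and Ppbp by 0.54 and 0.26. For Vwf every KI GMP array lay below every WT GMP array. The median difference of the 6 genes in GMP was -0.03. Ppbp, another platelet chemokine gene, lay below the array median on every array. The part of megakaryocytes or of erythroid cells in the Ltbp1 signal was not tested.

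The receptor genes did not pass the test in either population. Bmpr2, the type II BMP receptor, read 7.88, 7.86 and 7.88 in KI ST-HSC and 8.32, 7.88 and 8.01 in WT ST-HSC, and its difference was -0.20 (95% interval -0.68 to 0.28). In GMP its values were 7.74, 7.38 and 7.75 in KI cells and 8.04, 7.22 and 7.94 in WT cells, with a difference of -0.11 (-0.59 to 0.37). Both intervals of this lead probe set leave out a change of 1 log2 unit either way. A second Bmpr2 probe set, with a mean of 7.02, differed by -0.30 (-1.04 to 0.45) in ST-HSC and -0.33 (-1.07 to 0.42) in GMP. Its intervals do not leave out a fall of 1 log2 unit. Tgfbr2, the type II receptor for TGF-beta, read 8.67, 8.62 and 9.12 in KI ST-HSC and 9.02, 7.39 and 8.97 in WT ST-HSC, where WT replicate 2 was low. It read 7.48, 8.14 and 7.77 in KI GMP and 7.43, 7.32 and 7.71 in WT GMP. Its differences were 0.34 (-0.51 to 1.19) and 0.31 (-0.54 to 1.16). Without WT ST-HSC replicate 2 the first turned to -0.19, and with replicate 2 as the only WT ST-HSC array, when the arrays high in Xist were left out, it was 1.41 (adjusted p = 0.0779).

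Bmpr1a, a type I BMP receptor, was below the array median with its lead probe set on every array. The values ran from 3.58 to 4.06 in KI ST-HSC and 3.88 to 4.05 in WT ST-HSC, and from 3.75 to 3.99 in KI GMP and 3.96 to 4.16 in WT GMP. These overlapping values gave differences of -0.05 (95% interval -0.39 to 0.28) and -0.18 (-0.51 to 0.16). Of its 5 other probe sets none was called. The one farthest from 0 read 3.85, 4.01 and 5.64 in KI GMP and 3.37, 3.60 and 2.93 in WT GMP, with a difference of 1.197 (adjusted p = 0.179). Its groups did not overlap, and KI replicate 3 stood above the other KI arrays.

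Tgfbi, a gene named for its induction by TGF-beta that encodes a secreted matrix protein and is abundant in monocytes and macrophages, was far lower in KI in both populations. It read 4.14, 3.56 and 3.76 in KI ST-HSC, against 9.23, 8.13 and 9.19 in WT ST-HSC. In GMP it read 4.82, 3.67 and 3.10 in KI cells and 7.13, 6.76 and 6.60 in WT cells. No KI array reached a WT array. Tgfbi fell by 5.03 ± 0.42 on the log2 scale in ST-HSC (32.7-fold lower, adjusted p = 0.000194) and by 2.97 ± 0.42 in GMP (7.84-fold lower, adjusted p = 0.00585), by limma (SE, n = 3 against 3). It had rank 18 by size among the 305 genes called lower in KI ST-HSC. The smaller difference in GMP was not shown to differ from that in ST-HSC (2.06, 95% interval 0.74 to 3.37, adjusted p = 0.338).

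All 4 Tgfbi probe sets fell in ST-HSC, by 4.53 to 5.26, where 1.19% of all probe sets were called lower, and 3 of 4 fell in GMP, where 1.07% were. The fourth gave -1.62 in GMP with adjusted p = 0.0767, with values of 4.43, 2.93 and 3.67 in KI GMP and 6.03, 4.46 and 5.38 in WT GMP, so that KI replicate 1 nearly reached WT replicate 2. The GMP call of the lead probe set was lost when only the 6 GMP arrays were fitted (adjusted p = 0.06) and without the WT arrays high in Xist (0.0979), and SAM did not call it. In those 2 settings the difference was -2.97 and -2.90. The probe set that fell by 5.26 in ST-HSC lay at percentiles 2.6 to 6.7 in KI ST-HSC and 3.2 to 6.5 in KI GMP. So near the bottom of the arrays, its fall may be larger than printed. The lead probe set lay higher, at percentiles 23.6 to 36.4 in KI ST-HSC and 18 to 51.3 in KI GMP.

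Of 9 macrophage markers, 3 were called lower with Tgfbi in each population, Csf1r, Mpeg1 and Ctss. The summed signal of the 9 genes was 147 to 219 in KI ST-HSC and 4870 to 9330 in WT ST-HSC, and 194 to 507 in KI GMP and 2300 to 3630 in WT GMP. The other 6 were not called. In ST-HSC Adgre1, Cd68 and C1qb differed by -1.06, -1.39 and -0.72, and C1qa, C1qc and Cd14 by -0.10, 0.01 and -0.22. In GMP all 6 were below 0, from -1.15 for Adgre1 to -0.21 for C1qa. C1qb and C1qc, which mark mature tissue macrophages, lay below the array median on every array. The part of these cells in the Tgfbi signal was not tested.

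**Figure D2:**
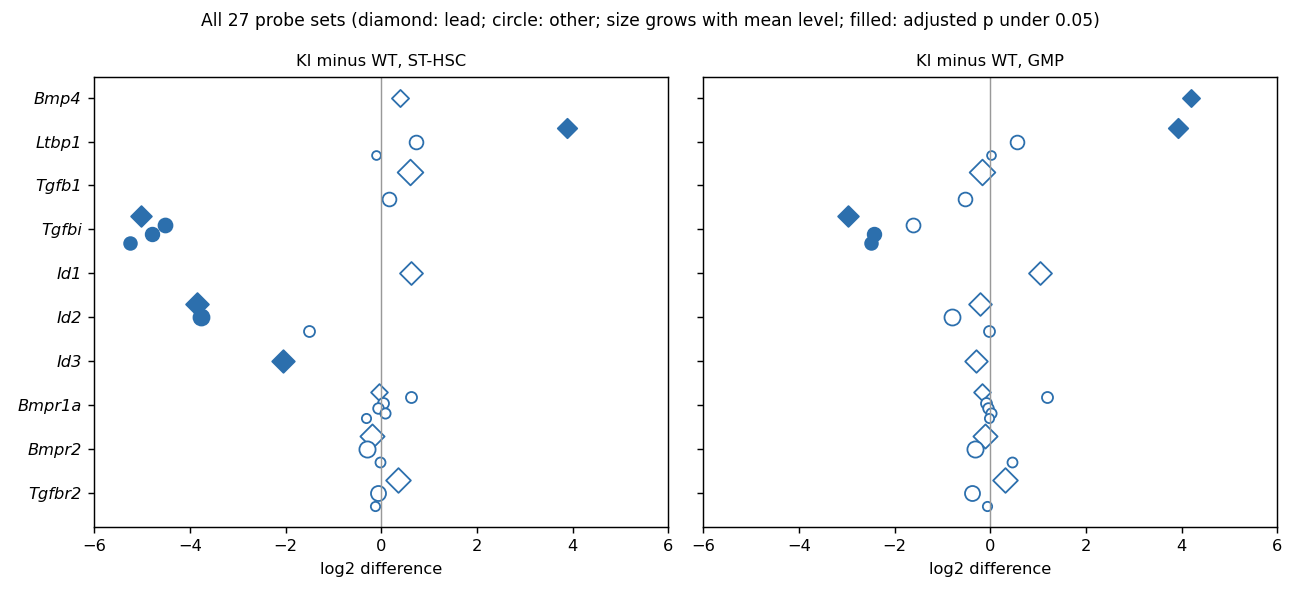
Log2 difference of KI minus WT (x axis) for all 27 probe sets by gene (rows), in ST-HSC and in GMP; diamonds are lead probe sets, circles the others, symbol size grows with the mean level, and filled symbols have a limma adjusted p under 0.05. The 4 Tgfbi probe sets sit together between -5.26 and -4.53 in ST-HSC, whereas the 3 Ltbp1 probe sets are spread from -0.12 to 3.87.

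Id2 and Id3, which encode inhibitors of E proteins, were both lower in KI ST-HSC. Id2 read 5.94, 5.71 and 6.17 in KI ST-HSC, against 9.46, 9.35 and 10.56 in WT ST-HSC. Id3 read 6.12, 6.996 and 6.54 in KI ST-HSC, against 8.54, 8.25 and 9.08 in WT ST-HSC. All KI arrays lay below all WT arrays for both genes. Id2 fell by 3.85 ± 0.65 (14.4-fold lower, adjusted p = 0.0117) and Id3 by 2.07 ± 0.27 (4.19-fold lower, adjusted p = 0.00268) on the log2 scale by limma (SE, n = 3 against 3). A second Id2 probe set fell by 3.77 (adjusted p = 0.00499), and the last, at low signal, gave -1.52 (adjusted p = 0.266) with WT replicate 3 far above the other WT arrays. Id3 has no second probe set here to check it. Marker lists of other cells were lower in KI ST-HSC too. The summed unlogged signal of 7 hepatocyte genes was 434 to 472 in KI ST-HSC and 1030 to 1860 in WT ST-HSC, with 2 called lower. For 6 B lineage genes it was 203 to 205 in KI ST-HSC and 844 to 2230 in WT ST-HSC, with 2 called lower. The part of such cells, or of macrophages, in the Id2 and Id3 signals was not tested. The Id2 call on the lead probe set was lost without KI replicate 2 (adjusted p = 0.0643) and with the Xist level as a covariate (-3.12, adjusted p = 0.0738). Leaving out the WT arrays high in Xist, the Id3 difference was -1.70 (adjusted p = 0.0605), and SAM did not call Id3.

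In GMP neither gene passed the test. Id2 read 6.40, 5.51 and 6.07 in KI GMP and 5.30, 5.24 and 8.05 in WT GMP. With this lead probe set the WT array of replicate 3 stood nearly 3 log2 units above its group and decided the sign. The difference was -0.20 (95% interval -1.65 to 1.24, adjusted p = 0.942), and without that array it was 0.72 (adjusted p = 0.475). The second Id2 probe set read 5.25, 4.37 and 5.31 in KI GMP and 5.17, 5.19 and 6.97 in WT GMP. Its difference was -0.80 (adjusted p = 0.587 by limma), and that of the last was -0.02. Id3 read 6.19, 5.74 and 5.97 in KI GMP, against 5.96, 6.31 and 6.51 in WT GMP, with a difference of -0.30 (-0.89 to 0.30). The difference between populations was 3.64 for Id2 (adjusted p = 0.254) and 1.77 for Id3 (adjusted p = 0.164), neither past the threshold. For Id2 it passed without WT GMP replicate 3 (4.57, adjusted p = 0.0229) and without the WT arrays high in Xist (4.16, adjusted p = 0.0463).

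Id1, a family member commonly used as a readout of BMP signalling, showed the opposite sign to Id2 and Id3 in ST-HSC without passing the test. It read 6.99, 7.33 and 7.75 in KI ST-HSC and 6.67, 7.11 and 6.44 in WT ST-HSC, a difference of 0.61 (95% interval -0.09 to 1.31, adjusted p = 0.466). In GMP Id1 read 7.52, 7.58 and 7.84 in KI cells and 6.11, 7.34 and 6.36 in WT cells. The GMP groups did not overlap, although WT replicate 2 came close to the KI arrays, and the difference of 1.04 (0.34 to 1.74, adjusted p = 0.134) missed the threshold. Without WT GMP replicate 2 it was 1.41 with adjusted p = 0.0277. The difference between the populations was 0.43 (95% interval -0.56 to 1.42, adjusted p = 0.881 by limma). A link between Id1 and Bmp4 was not tested. Id1, too, has no second probe set here to check it. Id4 was low throughout and differed by -0.04 in ST-HSC and 0.02 in GMP.

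**Figure D3:**
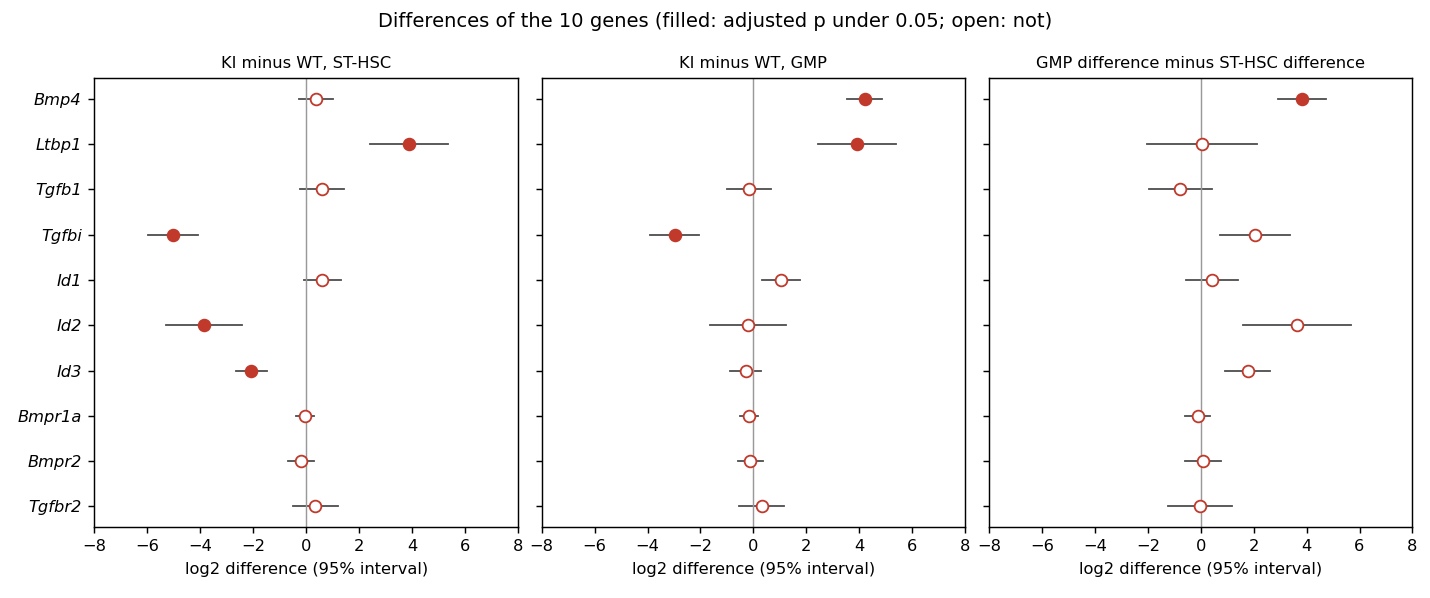
Log2 differences (x axis) with 95% intervals from the limma fit for the lead probe set of each gene (rows): KI minus WT in ST-HSC, KI minus WT in GMP, and the GMP difference minus the ST-HSC difference. Filled points passed an adjusted p under 0.05, which in the right panel holds for Bmp4 alone, at 3.82.

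Other genes of the BMP and TGF-beta pathways were called at about the rate of all genes. Of 76 listed, 69 had a probe set, and in KI ST-HSC 1 was called higher and 0 lower, against 1.33% and 1.68% of all genes, while in KI GMP 1 was called higher and 1 lower, against 1.19% and 1.4%. Their median difference was -0.04 in ST-HSC and 0.01 in GMP. None of 17 other ligand genes and none of 13 genes for Smads and their regulators passed the test in either population. Smad1, Smad5 and Smad9, which carry BMP signals, differed by -0.15, -0.40 and -0.38 in ST-HSC and by 0.39, -0.88 and -0.16 in GMP. Smad5 came nearest to the threshold in GMP (adjusted p = 0.0554). Smad6 and Smad7, inhibitory Smads that BMP and TGF-beta signals induce, differed by -0.11 and -0.89 in ST-HSC and by -0.25 and -0.27 in GMP, with every adjusted p above the threshold.

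The called pathway genes were Tgfbr3, Thbs1 and Fstl3. Tgfbr3, the coreceptor betaglycan that presents TGF-beta to the type II receptor, read 9.39, 9.26 and 9.28 in KI ST-HSC and 7.20, 7.75 and 6.59 in WT ST-HSC. It rose by 2.13 (adjusted p = 0.0426) in ST-HSC, and in GMP it differed by 1.81 (adjusted p = 0.0803), with KI arrays at 8.49 to 8.90 above all WT arrays at 6.09 to 8.13. Thbs1, thrombospondin-1, an activator of latent TGF-beta, read 6.71, 8.63 and 7.93 in KI GMP and 4.45, 5.33 and 5.499 in WT GMP. These groups did not overlap, and Thbs1 rose by 2.66 (adjusted p = 0.0414). Fstl3, a secreted antagonist of activins, read 8.56, 8.43 and 8.38 in KI GMP and 9.70, 10.51 and 10.31 in WT GMP and fell by 1.72 (adjusted p = 0.0238). Among E protein genes, the partners of the Id proteins, Tcf3, Tcf4 and Tcf12 differed by 0.14, -0.39 and 0.30 in ST-HSC. In GMP they differed by 0.41, -0.79 and -0.62. None was called in either population, though for Tcf4 and Tcf12 every KI GMP array lay below every WT GMP array.

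**Figure D4:**
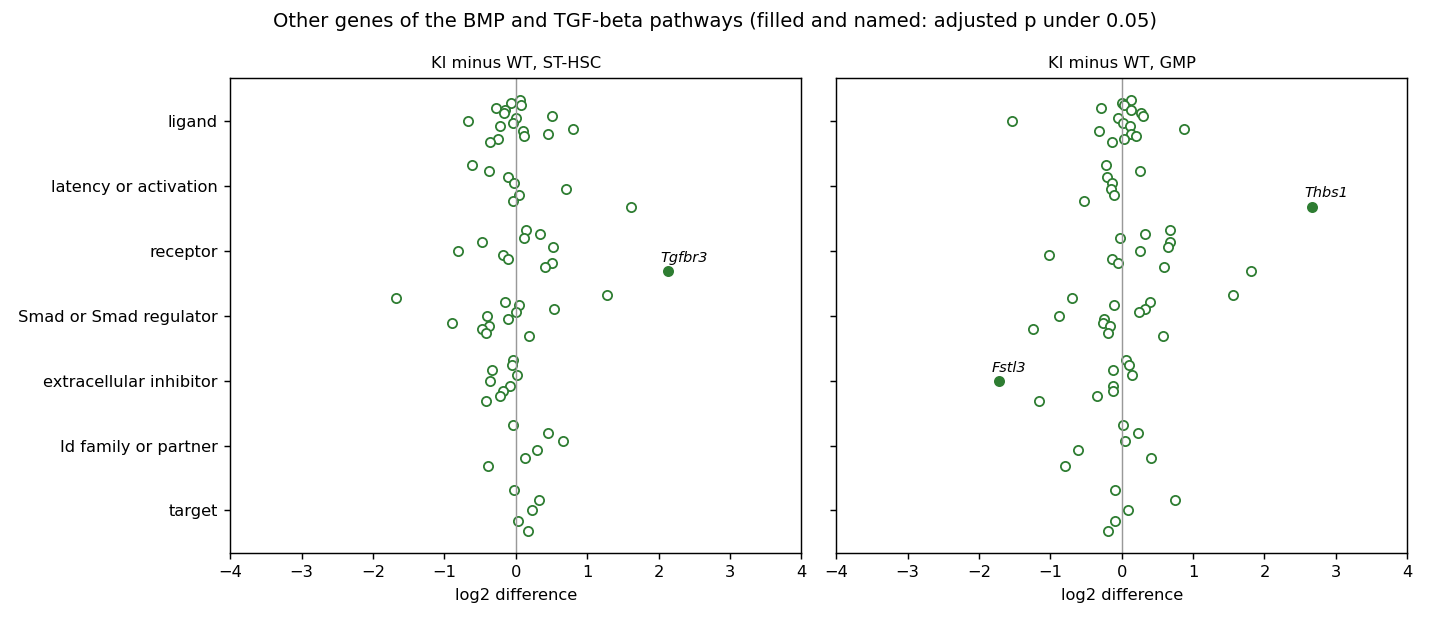
Log2 difference of KI minus WT (x axis) for 69 further genes of the BMP and TGF-beta pathways grouped by role (rows), in ST-HSC and in GMP. Filled, named points passed a limma adjusted p under 0.05: Tgfbr3 at 2.13 in ST-HSC, Thbs1 at 2.66 and Fstl3 at -1.72 in GMP.

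The genes with the most similar pattern were sought by Pearson's r over the 12 arrays after subtracting the mean of each population, as a description in which KI and WT differences and shared arrays both enter. For Bmp4 they were Ndfip1 (r = 0.976), Ephb6 (0.958) and Prkag1 (0.943). A high r does not mean a change of like size: in GMP these differed by 0.72, 1.44 and 0.73, beside 4.20 for Bmp4. For Tgfbi the closest genes were Tyrobp (0.985), an adaptor of myeloid receptors, Arhgap15 (0.982) and Ifi209 (0.978). For Id2 they were Cadm1 (0.965), Cd74 (0.954), a chaperone of antigen presentation, and Slfn5 (0.953), and for Id3 Itgax (0.974), which encodes CD11c, H2-Eb1 (0.968) and Mycl (0.965). The Ltbp1 pattern was most like those of Chd4 (0.961), Zadh2 (0.959) and Trnp1 (0.955). These differed by 0.62, 0.97 and 2.14 in ST-HSC, beside 3.87 for Ltbp1, and by 0.49, 1.05 and 1.47 in GMP, beside 3.92. Among the 10 genes themselves the closest pair was Id2 with Id3 (0.905), Id3 with Tgfbi reached 0.852, and Bmp4 reached 0.722 with Ltbp1 and 0.717 with Id1.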

How the data were processed

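The authors hybridized linearly amplified RNA of 12 samples, 1 array each, and processed the arrays by RMA in R-Bioconductor. They deposited log2 signals for 45101 probe sets. The RMA version, and whether all arrays were normalized together, are not given in the sources used here. RMA removes differences common to all probe sets of an array and compresses small ones at low signal. Arrays carry no read depth, and their number limits the precision.

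After 64 control probe sets were left out, 45037 were fitted, without a filter on low values, by limma 3.58.1 in R 4.3.3 (lmFit on 4 group means, contrasts, eBayes; 8 residual and 2.52 prior degrees of freedom). A probe set is called when its p, adjusted over all of them after Benjamini and Hochberg, is under 0.05, and 95% intervals are not adjusted. With 3 arrays against 3 an exact permutation test cannot give a two-sided p below 0.1. Symbols follow the platform annotation, updated through RefSeq of GRCm38.p6, under which 34945 probe sets have 1 symbol. The scripts were tested on simulated data. Named genes are the 10 genes, the listed pathway genes called in a comparison (up to 20), the 3 genes closest in pattern to each called gene, Spi1, Xist and markers that a result turns on. The Smad, E protein and Id4 genes were added after their values were seen. The members and lists were chosen with earlier results of these data known. Marker lists of B lineage cells, hepatocytes, megakaryocytes, erythroid cells, endothelium and granulocytes were fitted too. Beside the macrophage and stromal lists, 2 of 7 hepatocyte genes fell in each population, 2 of 6 B lineage genes fell in ST-HSC and 1 in GMP, 1 of 7 granulocyte genes fell in GMP, 3 of 6 erythroid genes rose in ST-HSC and none in GMP, 2 of 6 megakaryocyte genes rose in ST-HSC and 1 in GMP, and 1 of 8 endothelial genes rose in GMP.

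Alternatives were other scalings, filters, priors and probe sets, the SAM method with 20 label permutations, the replicate number as a block within each population, the Xist level, and each array left out.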

Additional observations from a re-analysis of the deposited data

Results flagged for a closer look

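The KI minus WT difference of Bmp4 passed the test of a difference between the 2 populations, in a call that several settings ended. It was larger in GMP than in ST-HSC by 3.82 on the log2 scale (limma, adjusted p = 0.013, 3 arrays a group). In GMP all 3 KI arrays were above all 3 WT arrays, while in ST-HSC the groups overlapped. The call was lost with the replicate number as a block (adjusted p = 0.128), without KI ST-HSC replicate 2 (0.0547) or replicate 3 (0.0573), and without the WT arrays high in Xist (0.0715).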

How the results depend on the processing

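Of the 10 genes, 4 were called in ST-HSC, 3 in GMP and 1 for the difference between the populations, and no called difference changed sign with the lead probe set. Leaving out 1 array gave 2 to 4 calls in ST-HSC, 2 to 4 in GMP and 0 to 2 for the difference; calls in ST-HSC fell to 2 without KI ST-HSC replicate 2 (Ltbp1 and Id2 lost), and the difference had 0 without KI ST-HSC replicate 2 or 3 and 2 without WT GMP replicate 3. Calls in GMP came to 1 (Bmp4) when only the 6 GMP arrays were fitted, by SAM, and without the WT arrays high in Xist, and without those arrays 2 were called in ST-HSC. The filter on a mean above the median probe set, which takes out Bmp4 and Bmpr1a, left 0 for the difference. SAM did not call Id3 in ST-HSC.

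KI and WT samples of 1 number deviated from their group means with r of 0.03 to 0.07 in ST-HSC and -0.04 to 0.00 in GMP. Across the populations r was -0.10 to 0.03 for KI and 0.06 to 0.16 for WT samples, whose Xist levels also match by number. Not every r was over 0.1, and the numbers are not treated as pairs. The block setting joins KI and WT arrays of 1 number within each population. No setting models a link between ST-HSC and GMP arrays of 1 number. The test of the difference between populations therefore takes those arrays as independent. With the replicate block the calls of the 10 genes stayed at 4 in ST-HSC and 3 in GMP, and that for the difference fell to 0 (Bmp4, adjusted p = 0.128). Over all probe sets the block called 255 higher in ST-HSC in place of 458, and SAM called 41 higher and 120 lower there and 12 higher and 31 lower in GMP.

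Signs turned only for values that were not called, except 1 Ltbp1 probe set named below; the cause was not tested. With the mean of all probe sets the value was 0.0474 and 0.146 for Bmpr1a in ST-HSC and GMP and 0.0986 for its difference between populations, and in GMP 0.0036 for Bmpr2 and -0.0468 for Tgfbr2. With the Xist covariate it was -0.031 for Bmp4 and 0.165 for Bmpr2 in ST-HSC, and in GMP 0.0665 for Tgfb1, 0.246 for Bmpr2 and 0.516 for Id2. Leaving out the WT arrays high in Xist gave -0.0162 for Bmp4 in ST-HSC, and in GMP 0.0129 for Tgfb1, 0.40 for Bmpr2 and 0.75 for Id2. Other probe sets gave -0.117 for Ltbp1 in ST-HSC, where its lead probe set was called, and -0.171 for its difference between populations. For Bmpr1a they gave 0.626, 0.0333 and 0.0695 in ST-HSC, 1.197 and 0.021 in GMP, and 0.571, 0.0137 and 0.304 for the difference. For Bmpr2 they gave 0.45 in GMP and -0.028 for the difference, and for Tgfbr2 -0.0744 and -0.14 in ST-HSC, -0.389 and -0.063 in GMP, and 0.0771 for the difference. With 1 array left out, values ranged from -0.138 to 0.102 for Bmpr1a and -0.191 to 0.622 for Tgfbr2 in ST-HSC. In GMP they ranged from -0.584 to 0.0642 for Tgfb1, -0.369 to 0.041 for Bmpr2 and -0.681 to 0.722 for Id2. For the difference they ranged from -0.451 to 0.855 for Ltbp1, -0.171 to 0.24 for Bmpr2 and -0.31 to 0.503 for Tgfbr2.

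Low signal limits Bmp4, Ltbp1 and Tgfbi in the group where each is low, and Bmpr1a throughout: near background the array gives little more than an upper bound. With 3 arrays a group, calls near the threshold moved with single arrays.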
